A study of Mus musculus with 14 samples.

Results

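The subunits of the respiratory chain and the ATP synthase were followed through the chemical conversion of mouse fibroblasts toward retinal pigment epithelium (RPE), as 102 of the 55291 genes in a deposited mouse count table. The genes were chosen by a rule on symbols that used no measured value, although earlier results of these data were known. They were the nuclear Nduf subunit series, Sdha to Sdhd, and all genes whose symbols begin with Uqcr, Cox4 to Cox8 or Atp5. The messenger genes mt-Nd, mt-Co, mt-Cytb and mt-Atp of the mitochondrial genome were also taken. Another 14 symbols that contain -ps were left out, of which Ndufb1-ps reached 812 counts in a library and each other one at most 44. Of the 102 genes, 89 are nuclear and 13 are mitochondrial. Complex I had 39 nuclear and 7 mitochondrial genes, complex II 4 nuclear genes, complex III 8 nuclear and 1 mitochondrial, complex IV 20 nuclear and 3 mitochondrial, and the ATP synthase (complex V) 17 nuclear and 2 mitochondrial. Cox7a2l, known as a factor that joins complexes III and IV, was kept apart. Ndufa4 and Ndufa4l2 were counted with complex IV, where their products are now placed.

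Total RNA was sequenced in 14 libraries, all given as C57BL/6J. MEF libraries were fibroblasts of E13.5 embryos (3 libraries). D7 and D18 were intermediates after 7 and 18 days of the protocol (3 libraries each), and D32 were the day 32 cells, labelled ciRPE (3 libraries). P-RPE were primary RPE (2 libraries), labelled as untreated. D7 and D18 were given the first medium (M7), with bFGF, CHIR-99021, LDN193189, A 83-01, Hh-Ag1.5, RG108, BMS-345541 and CKI-7. D32 was given the second (M3), with KSR, activin A, retinoic acid, Y27632 and nicotinamide. The labels enter M7 as the treatment of the MEF libraries too, and they name the E13.5 embryo as the tissue of every library, P-RPE included. Cells that looked successfully converted were scraped for each time point, so the libraries do not sample whole cultures. Library totals ranged between 32352405 and 41390196 counts.

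The respiratory chain lies in the inner membrane of the mitochondrion. Complexes I and II pass electrons of NADH and succinate to coenzyme Q, complex III passes them to cytochrome c and complex IV to oxygen. The proton gradient built by complexes I, III and IV drives the ATP synthase. Most subunits are made from nuclear genes, while a small core is coded by mitochondrial DNA, whose long transcripts are cut into single messengers. RPE is known as a tissue with many mitochondria that relies on oxidative metabolism and supports the photoreceptors next to it.

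Levels are given as CPM, the usual unit in which a gene's counts are set against its library's total, here after TMM scaling (a correction for differences in RNA composition between libraries). Marker genes were checked before the subunits. All 9 RPE markers exceeded 1 CPM in D32 and P-RPE, and they summed to 4176 to 7978 CPM in D32 and to 54760 to 60738 CPM in P-RPE, against 0.823 to 1.40 CPM in MEF. Markers of other cell types were also detected, and whether other cells or the converting cells themselves carried them was not tested. In P-RPE, the 8 rod markers, all above 1 CPM, summed to 912 and 2559 CPM, red cell markers to 975 and 1780, macrophage markers to 1010 and 1055 and endothelial markers to 450 and 547 CPM. In D18, astrocyte markers reached 24122 to 35682 CPM, ciliated cell markers 600 to 872 CPM and fibroblast markers 3021 to 14121 CPM. In D32, fibroblast markers summed to 9967 to 15841 CPM. Pericyte and smooth muscle markers summed to 949 to 1189 CPM in D32, to 1070 and 1113 CPM in P-RPE and to 811 to 835 CPM in MEF. In such bulk samples, fewer cells of a type and less RNA per cell cannot be told apart. The labels do not say that replicates came from separate cultures or animals, so p-values measure the spread between these libraries, which may be technical.

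One library stood apart in its group. In D32 replicate 2, each of the 13 mitochondrial genes was below the mean of the other D32 libraries, with ratios of 0.269 to 0.642 and a median of 0.474. Of the 83 nuclear subunits tested, 70 were above that mean, with ratios of 0.7 to 1.88 and a median of 1.22. Results that rest on D32 are therefore given with and without this library.

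The summed level of the nuclear subunits was similar in fibroblasts and intermediates, and higher in primary RPE. It was 8698, 9224 and 8851 CPM in MEF, 8889, 9058 and 9027 CPM in D7, and 8952, 8335 and 8483 CPM in D18. It was 7132, 8834 and 6851 CPM in D32, against 11690 and 11721 CPM in P-RPE. Both P-RPE libraries lay above every other library, and D32 replicates 1 and 3 lay below every other library. The group means were 8924 ± 271 in MEF, 8991 ± 90.1 in D7, 8590 ± 322 in D18 and 7606 ± 1073 in D32 (SD, n = 3 each), and 11705 ± 22 CPM in P-RPE (SD, n = 2). The part of the other cell types in the P-RPE level was not tested.

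The 13 mitochondrial genes moved more widely. They summed to 14768, 14482 and 13629 CPM in MEF, to 28579, 31504 and 29593 CPM in D7, and to 23920, 16182 and 17683 CPM in D18. D32 had 28422, 14411 and 30679 CPM, against 31313 and 20907 CPM in P-RPE. All 3 D7 libraries lay above all MEF and D18 libraries, while the D32 libraries spanned nearly the whole range of the series. As a ratio of the mitochondrial to the nuclear sum, MEF had 1.6 ± 0.0839, D7 3.32 ± 0.137, D18 2.23 ± 0.387 and D32 3.36 ± 1.52 (SD, n = 3 each), and P-RPE had 2.23 ± 0.633 (SD, n = 2). D32 replicate 2 had a ratio of 1.63, close to the MEF mean, and the other D32 libraries had 3.99 and 4.48, the highest of the series. As a share of all counts, mitochondrial subunits took 1.25% to 3.61% of a library and nuclear subunits 0.744% to 1.06%. Nearly all of the mitochondrial sum came from 7 genes. Without the 6 genes of the copied stretch described later, it averaged 14285 CPM in MEF and 24470 CPM in D32. With them it averaged 14293 and 24504 CPM.

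By complex, the stages differed in which sums moved. The 17 nuclear genes of the ATP synthase summed to 3746 ± 83.7 CPM in MEF, 3488 ± 47.9 in D7, 3028 ± 117 in D18 and 2801 ± 301 in D32 (SD, n = 3 each), against 4409 ± 36 CPM in P-RPE (SD, n = 2). The nuclear genes of complex I summed to 2051 ± 77.4 in MEF, 2234 ± 38.7 in D7, 2344 ± 65.2 in D18 and 2001 ± 310 in D32 (SD, n = 3 each), against 3149 ± 55.1 CPM in P-RPE (SD, n = 2). Every D7 library lay below every MEF library in the ATP synthase sum, and every D18 library below every D7 library. D32 libraries had 2738, 3128 and 2536 CPM, and replicate 2 lay among the D18 values of 3163, 2960 and 2961 CPM. Among the 17 genes, Atp5b alone averaged 1468 CPM in MEF, 1154 in D7 and 811 in D18. The median log2 change of the 17 was 0.03 in D7 against MEF and -0.12 in D18 against D7. For complex I the D32 libraries had 1831, 2359 and 1813 CPM, and replicate 2 was again the highest. Complex II averaged 537 ± 33.7 CPM in D32, against 754 ± 41.9 CPM in D18 (SD, n = 3 each), without overlap. These sums were not tested.

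**Figure D1:**
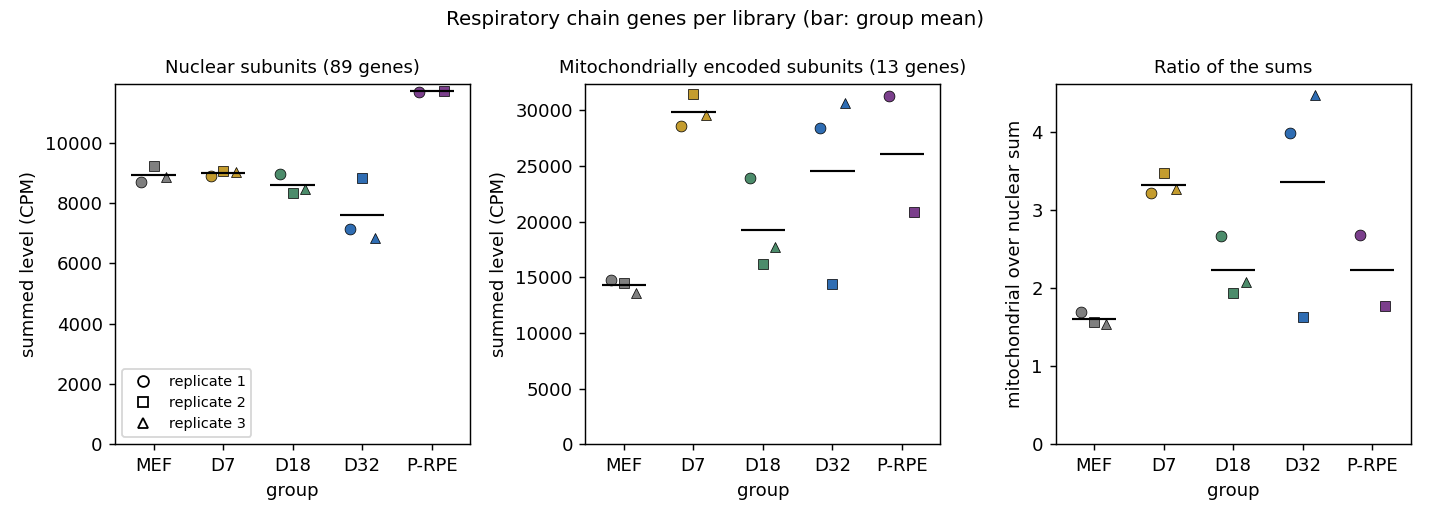
Summed levels of the 89 nuclear and the 13 mitochondrial genes in CPM, and the ratio of the sums, in each of the 14 libraries. Symbols mark replicates and bars the group means. The P-RPE nuclear sums of 11690 and 11721 CPM lie above all other libraries, and D32 replicate 2 falls below its group in the mitochondrial sum (14411 CPM). Nearly all of the mitochondrial sum comes from the 7 genes outside the copied stretch described later.

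Each gene was tested by the quasi-likelihood method of edgeR, and p-values were adjusted after Benjamini and Hochberg over all 20562 genes with enough counts. A gene was called at an adjusted p under 0.05. All 13 mitochondrial and 83 of the 89 nuclear genes entered it. The other 6 had almost no counts: Cox8c and Cox7b2, known as testis forms, and Cox6c2, Ndufa11b, Ndufb4c and Ndufs6b. Where no mitochondrial gene was called lower in edgeR (or higher, for D18 against D7), the count at an unadjusted p under 0.05 and the count by DESeq2 were also 0, except in D32 against MEF, with 2 and 1 lower. Comparisons that share a group, such as D32 against MEF and P-RPE against MEF, share its libraries.

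Mitochondrial genes rose in D7. Of the 13, 9 were higher in D7 than in MEF (69.2%, beside 28.5% of all genes tested) and 0 lower (beside 26.5% of all genes). Their median log2 change was 1.04, beside 0.04 for all genes. Outside the copied stretch described later, 6 of 7 genes were higher, with a median of 1.04, and inside it 3 of 6, with a median of 0.93. This grouping was chosen after the data were seen. mt-Co1, the catalytic subunit of complex IV that reduces oxygen, had 12674, 12856 and 12933 CPM in D7, against 5577, 5391 and 5323 CPM in MEF. Its log2 change was 1.24 (SE 0.24, edgeR adjusted p = 0.000513), and the groups did not overlap. mt-Cytb, the cytochrome b of complex III, had 5166, 5975 and 5116 CPM in D7, against 2706, 2681 and 2530 CPM in MEF, again with no overlap (log2 change 1.04, SE 0.21, edgeR adjusted p = 0.000531). mt-Nd4 rose by 1.14, mt-Nd2 by 1.04 and mt-Nd5 by 0.86, all proton-pumping subunits of complex I. mt-Nd1, next to the quinone site of complex I, was called at 0.75, but its call was lost whichever library of either group was left out (log2 changes of 0.66 to 0.78). The gain was present under scaling by library totals alone, where the median was 1.36. Astrocyte markers also differed, with sums of 1050 to 1522 CPM in D7, against 16.4 to 18.7 CPM in MEF, and their part in this was not tested.

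Most mitochondrial genes were lower in D18 than in D7. Of the 13, 10 were lower (76.9%, beside 27.4% of all genes) and 0 higher (beside 29.2%), with a median log2 change of -1.04 beside 0.00 for all genes. Outside the copied stretch, 5 of 7 genes were lower, with a median of -0.91. Inside it, where counts were few, 5 of 6 were lower, with a median of -1.44. mt-Nd1 had 1141, 1006 and 879 CPM in D18, against 2662, 3035 and 2697 CPM in D7 (log2 change -1.47, SE 0.29, edgeR adjusted p = 0.000607). Its D18 values were also below all 3 MEF values of 1735, 1676 and 1572 CPM. mt-Co1 had 12257, 7851 and 9008 CPM in D18, against 12674, 12856 and 12933 CPM in D7, and did not pass (log2 change -0.40, SE 0.24, edgeR adjusted p = 0.171). mt-Nd4 did not pass either, at a log2 change of -0.21. The genes thus differed in their D18 level relative to MEF: mt-Nd1 was below it, and mt-Co1, mt-Nd4 and mt-Cytb lay above it in every D18 library. That difference between genes was not tested. Astrocyte and ciliated cell markers were at their highest in the same D18 libraries, and their part in this was not tested.

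In D32 the mitochondrial values split by library. Against D18, 6 of 13 genes were higher (46.2%, beside 29.9% of all genes) and 0 lower (beside 26.1%), and without D32 replicate 2 the count was 12. Against MEF, 6 were higher (46.2%, beside 35.6% of all genes) and 0 lower (beside 24.6%), and without D32 replicate 2 the count of those higher was 9. mt-Co1 had 13486, 6800 and 14495 CPM in D32, against 5577, 5391 and 5323 CPM in MEF, so that every D32 library lay above MEF (log2 change 1.09, SE 0.24, edgeR adjusted p = 0.00124). mt-Nd4 also passed, with 2013, 1129 and 2136 CPM in D32 and 764 to 824 CPM in MEF. mt-Nd1 had 2668, 1071 and 2790 CPM in D32, on either side of the MEF values, and did not pass (edgeR adjusted p = 0.251).

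Against P-RPE, 4 of 13 mitochondrial genes were higher in D32 (30.8%, beside 27.1% of all genes) and 0 lower (beside 26.8%). All 4 (mt-Co2, mt-Atp6, mt-Co3 and mt-Nd4l) belong to the copied stretch described next. The 7 genes outside that stretch all overlapped between the groups and did not pass, with a median log2 change of 0.13. mt-Co1 had 13486, 6800 and 14495 CPM in D32, against 14407 and 10046 CPM in P-RPE. Without D32 replicate 2, 8 of the 13 were higher. The spread within both groups was wide: leaving out P-RPE replicate 2 or replicate 1 set the median of the 13 genes to 0.02 or 1.09. In P-RPE against MEF, 5 genes were higher (38.5%, beside 39.3% of all genes) and 3 lower (23.1%, beside 31.4%), shares at or below the background. Those higher were mt-Co1, mt-Cytb, mt-Nd4, mt-Co2 and mt-Co3. All 3 lower genes belong to the copied stretch, where 2 of 6 genes were higher and the median log2 change was -0.31. Outside it, 3 of 7 were higher and 0 lower by edgeR, with a median of 0.40. This grouping was chosen after the data were seen. mt-Cytb had 6912 and 4905 CPM in P-RPE, against 2530 to 2706 CPM in MEF (log2 change 1.16, SE 0.22, edgeR adjusted p = 0.000275), and mt-Nd4 lost its call without P-RPE replicate 1 (log2 change 0.48).

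**Figure D2:**
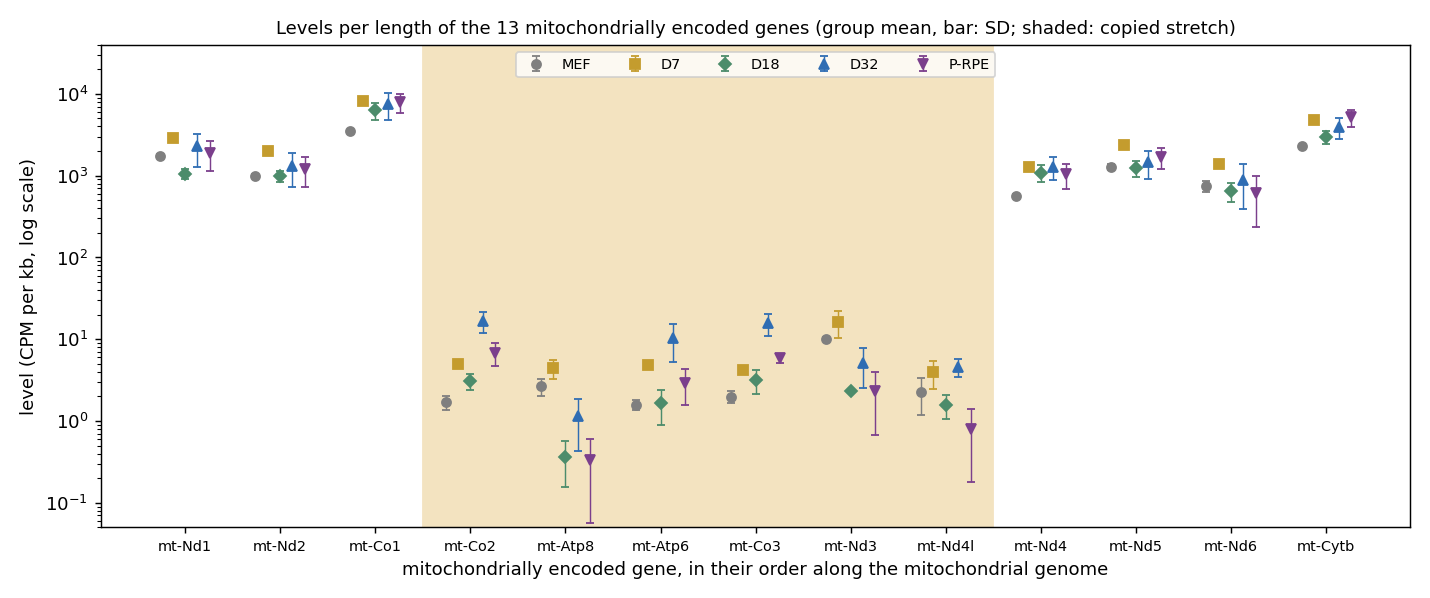
Levels per length (CPM per kb of exon, log axis) of the 13 mitochondrial genes in their order along the mitochondrial genome, as group means with SD (n = 3, and n = 2 for P-RPE). Group means of the 6 genes in the shaded stretch lie between 0.331 and 16.8 CPM per kb, and those of the 7 others at or above 572 CPM per kb.

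Levels per length fell into 2 classes along the mitochondrial genome. mt-Co1 averaged 6703 CPM per kb over the 5 groups, mt-Cytb 3817, mt-Nd1 1981, mt-Nd5 1605, mt-Nd2 1307, mt-Nd4 1050 and mt-Nd6 861 CPM per kb. mt-Nd6 is the messenger coded on the other strand and overlaps the end of mt-Nd5, and since the strand setting of the counting is not given, its reads may include those of transcripts running the other way. The 6 genes between mt-Co1 and mt-Nd4 averaged 1.78 (mt-Atp8) to 7.18 (mt-Nd3) CPM per kb. These are mt-Co2, which takes electrons from cytochrome c, mt-Co3, the ATP synthase genes mt-Atp8 and mt-Atp6, and the complex I genes mt-Nd3 and mt-Nd4l.

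This region has a near-identical copy in the nuclear genome. In GENCODE vM21, chr1:24611535-24616197 (GRCm38, minus strand) holds 7 unprocessed pseudogenes that match mt-Co1, mt-Co2, mt-Atp6, mt-Co3, mt-Nd3, mt-Nd4l and mt-Nd4. The copies of mt-Co2 (681 aligned bases), mt-Atp6 (678), mt-Co3 (783), mt-Nd4l (294) and mt-Nd4 (876) had 0 differing bases, that of mt-Nd3 had 1 in 345, and that of mt-Co1 had 6 in 492. Of all 100-base windows, 0.5% in mt-Co2 and mt-Atp6, 0.1% in mt-Co3, 2.4% in mt-Nd3, 1.5% in mt-Nd4l, 39.2% in mt-Nd4 and 69.2% in mt-Co1 occurred in no other annotated transcript. mt-Atp8 lies inside the stretch by position, and its level was the lowest of the 13. No copy of it is annotated there, and all 105 of its windows occurred in no other annotated transcript. Only annotated transcripts were searched. The bases of chromosome 1 between the end of Gm10925 (24614651) and the start of Gm28661 (24614885) were not, so a copy of mt-Atp8 there was not tested. The windows below are shown because they let a reader see how far a read can tell each gene from its copy. They are written 5′ to 3′ on the gene's strand, with differing bases in capitals: mt-Co1 at chrM:6381-6480 (plus), Gm29216 at chr1:24616098-24616197 (minus), mt-Co2 at chrM:7013-7112 (plus) and Gm28661 at chr1:24615466-24615565 (minus).
mt-Co1: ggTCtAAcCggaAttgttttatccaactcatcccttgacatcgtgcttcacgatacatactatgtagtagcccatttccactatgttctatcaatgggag
Gm29216: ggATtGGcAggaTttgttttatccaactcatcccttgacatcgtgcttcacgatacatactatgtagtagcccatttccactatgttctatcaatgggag
mt-Co2: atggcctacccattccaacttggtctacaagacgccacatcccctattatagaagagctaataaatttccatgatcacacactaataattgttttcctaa
Gm28661: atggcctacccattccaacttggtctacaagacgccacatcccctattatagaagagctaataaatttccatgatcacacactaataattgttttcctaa

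All 6 differences between mt-Co1 and its copy fall at the start of the copy, as T1056A, C1057T, A1059G, A1060G, C1062A and A1066T, counted from the first base of mt-Co1 with the mitochondrial base first. A read inside mt-Co2 carries no base that separates it from Gm28661. How reads with more than 1 match were treated is not given in the sources used here, so the values of mt-Co2, mt-Atp6, mt-Co3, mt-Nd3 and mt-Nd4l, and part of those of mt-Nd4 and mt-Co1, are uncertain and may mix both loci. The same may hold for mt-Atp8, for which an unannotated copy was not searched.

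Some of the low-count genes and the chromosome 1 copies were highest in D32. mt-Co2 had 11.3, 8.23 and 14.9 CPM in D32, against 2.61, 1.89 and 1.77 CPM in D18 (log2 change 2.45, SE 0.27, edgeR adjusted p = 2.29e-06) and 5.71 and 3.67 CPM in P-RPE (log2 change 1.29). Its copy Gm28661 had 702, 418 and 974 counts in D32, against 124, 88 and 92 counts in D18 and 277 and 196 counts in P-RPE. The D32 libraries lay above both other groups at both loci. mt-Nd3 and mt-Atp8 differed from this, with their highest group means in D7 (5.59 and 0.904 CPM). All 7 copies were higher in D32 than in D18 (log2 changes of 1.73 to 2.68) and than in P-RPE (0.88 to 2.42) by the same edgeR test. Of all genes, 29.9% were higher in D32 than in D18 and 27.1% higher than in P-RPE. Split by this stretch, a grouping chosen after the data were seen, D32 against D18 gave 5 of the 6 genes inside it higher with a median of 1.97 and 1 of the other 7 higher with a median of 0.38. D32 against MEF gave 3 of 6 genes inside higher and 3 of 7 outside, beside 35.6% of all genes, with medians of 1.86 and 0.42. The genes inside went both ways there, with log2 changes of -1.21 to 3.30: mt-Nd3 averaged 1.78 CPM in D32 and 3.51 CPM in MEF, and mt-Atp8 0.232 CPM in D32 and 0.543 CPM in MEF, neither of which passed. D32 against P-RPE gave medians of 1.57 and 0.13.

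In D7 the nuclear subunits changed little as a group. Of 83 tested, 17 were higher than in MEF (20.5%, beside 28.5% of all genes) and 7 lower (8.43%, beside 26.5%), with a median log2 change of 0.03. Ndufc2, an accessory subunit of complex I, had 119, 157 and 114 CPM in D7, against 56.5, 55.3 and 54.9 CPM in MEF (log2 change 1.22, SE 0.13, edgeR adjusted p = 1.08e-06). Ndufv3, another accessory subunit, had 87.6, 87.0 and 83.6 CPM in D7, against 45.0, 48.3 and 46.9 CPM in MEF (log2 change 0.88, SE 0.09, edgeR adjusted p = 1.32e-06). Neither pair of groups overlapped, and 3 of the 7 nuclear core subunits of complex I, Ndufs3, Ndufs7 and Ndufv2, were also higher. Atp5b, the catalytic beta subunit of the ATP synthase, had 1132, 1138 and 1193 CPM in D7, against 1421, 1502 and 1481 CPM in MEF (log2 change -0.35, SE 0.10, edgeR adjusted p = 0.0103). Cox5a, an accessory subunit of complex IV, had 36.7, 35.5 and 39.1 CPM in D7, against 50, 55.8 and 51.6 CPM in MEF (log2 change -0.50, SE 0.13). The alpha subunit Atp5a1 did not pass, with 872 to 877 CPM in D7 and 792 to 814 CPM in MEF (edgeR adjusted p = 0.297). The direction of these small shifts depends on the scaling: with library totals alone, which move the median of all genes by 0.32, 53 nuclear subunits were higher and 0 lower, and Atp5b and Cox5a no longer passed. Without MEF replicate 2, 2 were lower.

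Between D7 and D18, nuclear subunits moved both ways. 23 were higher in D18 (27.7%, beside 29.2% of all genes) and 18 lower (21.7%, beside 27.4%), shares near the background, with a median of 0.05. In complex I, 14 of 36 were higher and 7 lower. Ndufa3 had 63.5, 59.8 and 59.5 CPM in D18, against 28.0, 30.5 and 28.3 CPM in D7 (log2 change 1.08, SE 0.18, edgeR adjusted p = 0.000132), with no overlap. Ndufa1, Ndufa11, Ndufb10 and Ndufa2, all accessory subunits, were higher by 0.75 to 0.93. Atp5e, the epsilon subunit of the central stalk of the ATP synthase, had 119, 97.4 and 109 CPM in D18, against 51.6, 49 and 55.6 CPM in D7 (log2 change 1.06, SE 0.13). Cox7a2l had 89.7, 73.1 and 79.4 CPM in D18, against 146, 158 and 145 CPM in D7 (log2 change -0.89, SE 0.10, edgeR adjusted p = 2.53e-06), and Ndufa5 had 14 to 16.8 CPM in D18 and 24.9 to 27.7 CPM in D7. Both were lower in every D18 library. Library totals alone, which move the median of all genes by -0.21, gave 14 higher and 35 lower.

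Between D18 and D32, 10 nuclear subunits were higher in D32 (12%, beside 29.9% of all genes) and 24 lower (28.9%, beside 26.1%), with a median of -0.12 beside 0.07 for all genes. Without D32 replicate 2, 43 were lower and the median was -0.27. Complex II, which passes electrons of succinate to coenzyme Q, had 3 of its 4 genes lower. Its flavin subunit Sdha had 253, 262 and 250 CPM in D32, against 408, 336 and 384 CPM in D18 (log2 change -0.56, SE 0.10, edgeR adjusted p = 0.000144). Its iron-sulfur subunit Sdhb had 69.9, 82.4 and 64.9 CPM in D32, against 119, 116 and 112 CPM in D18, and neither gene's groups overlapped. Of the 7 nuclear core subunits of complex I, Ndufs3, Ndufs7, Ndufs8 and Ndufv1 were lower and none was higher in edgeR's test. Ndufs7, an iron-sulfur subunit, had 37.6, 65.6 and 38.8 CPM in D32, against 87.7, 83.0 and 74.8 CPM in D18 (log2 change -0.79, SE 0.17, edgeR adjusted p = 0.000868). Its D32 replicate 2 stood nearer to D18 than the other D32 libraries did. Ndufa1 and Cox8a, which did not pass, changed sign without that library.

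Measured against MEF, D32 had nearly as many nuclear subunits higher as lower. 22 were higher (26.5%, beside 35.6% of all genes) and 21 lower (25.3%, beside 24.6%), with a median of 0.01 beside 0.26 for all genes. Without D32 replicate 2, 31 were lower and the median was -0.11, and without MEF replicate 2, 13 were lower. Some abundant subunits were among those lower. Cox6a1, the liver-type form of subunit 6A of complex IV, had 184, 313 and 171 CPM in D32, against 435, 477 and 425 CPM in MEF (log2 change -1.0, SE 0.17, edgeR adjusted p = 0.000136). Atp5b had 833, 897 and 720 CPM in D32, against 1421 to 1502 CPM in MEF (log2 change -0.85, SE 0.10, edgeR adjusted p = 5.83e-06). Uqcrc1, a core protein of complex III, had 136, 183 and 130 CPM in D32, against 240, 261 and 254 CPM in MEF (log2 change -0.75, SE 0.12). None of the 3 overlapped. Cox4i1, the most abundant nuclear subunit that did not pass, had 208, 320 and 208 CPM in D32, against 266, 296 and 286 CPM in MEF. Cox8a averaged 196 CPM in D32 and 160 CPM in MEF. The 5 complex IV isoform genes that passed, described later, were all higher. Library totals alone, which move the median of all genes by 0.20, gave 38 higher and 10 lower.

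**Figure D3:**
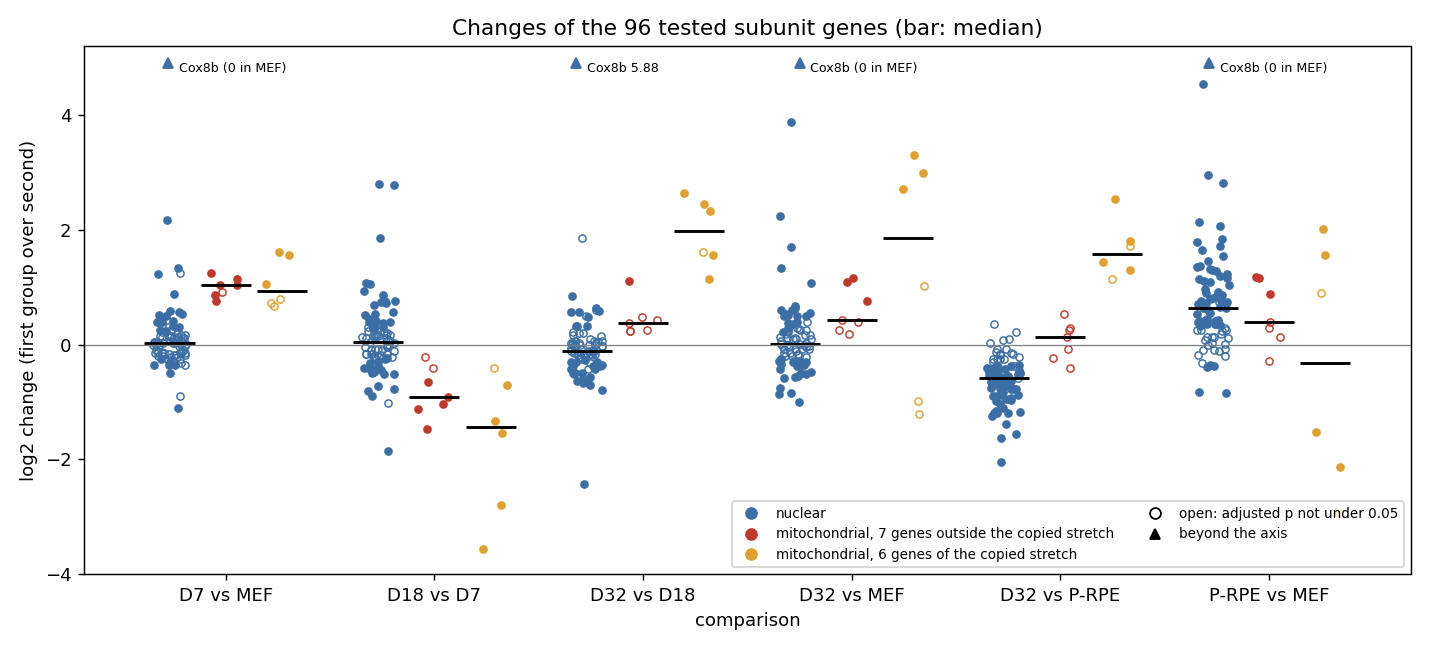
Log2 changes of the 96 tested subunit genes in the 6 comparisons, nuclear genes at the left of each comparison, the 7 mitochondrial genes outside the copied stretch in the middle and the 6 inside it at the right. Filled points passed at an adjusted p under 0.05 and bars are medians. The nuclear median lies at -0.59 for D32 against P-RPE and 0.63 for P-RPE against MEF, and within 0.12 of 0 elsewhere. Triangles mark Cox8b beyond the axis, which had 0 counts in MEF.

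Primary RPE carried more RNA of nuclear subunits than fibroblasts in all 5 complexes. Of 83 tested, 56 were higher in P-RPE (67.5%, beside 39.3% of all genes) and 5 lower (6.02%, beside 31.4%), with a median log2 change of 0.63 beside 0.18 for all genes. Higher were 25 of 36 in complex I, 2 of 4 in complex II, 6 of 8 in complex III, 11 of 17 in complex IV and 12 of 17 in the ATP synthase. Those lower were Cox5a, Cox6a1, Ndufab1, Ndufb8 and Ndufa10, and without P-RPE replicate 2 the count of those lower was 3. The rise was seen in core and accessory genes of complex I alike: 5 of 7 core subunits, with a median of 0.43, and 20 of 29 accessory subunits, with a median of 0.86. That difference between core and accessory genes was not tested.

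Outside the complex IV isoforms described later, the gene with the largest change was Ndufb11, an accessory subunit of the membrane arm of complex I (chrX:20615326-20617619, GRCm38, minus strand). It had 241 and 226 CPM in P-RPE, against 54.2, 60.8 and 53.3 CPM in MEF (log2 change 2.06, SE 0.10, edgeR adjusted p = 1.61e-10). D7, D18 and D32 libraries had 66.5 to 87.5 CPM, far below P-RPE. Ndufv3 had 154 and 153 CPM in P-RPE, against 45.0 to 48.3 CPM in MEF (log2 change 1.72, SE 0.10). Ndufb3 had 91.7 and 81.6 CPM in P-RPE, against 31.8 to 35.8 CPM in MEF (log2 change 1.37, SE 0.13). In all 3 genes the P-RPE values stood above every other library of the series. Of 9 peripheral stalk and membrane genes of the ATP synthase, 7 were higher and 2 did not pass, beside 39.3% of all genes higher. Their median log2 change was 0.39. Among them Atp5mpl had 119 and 95.0 CPM in P-RPE, against 31.8, 32.5 and 28.7 CPM in MEF (log2 change 1.79, SE 0.13, edgeR adjusted p = 6.86e-09). Atp5k had 70.8 and 64.2 CPM in P-RPE, against 18, 23.8 and 22.9 CPM in MEF (log2 change 1.64, SE 0.20). In complex III, Uqcr11 had 156 and 170 CPM in P-RPE, against 60.8, 71.3 and 63.0 CPM in MEF (log2 change 1.32, SE 0.21). Its levels in D18 (107 to 125 CPM) lay between those groups.

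Some large or catalytic subunits did not share this rise. Atp5b had 1230 and 1320 CPM in P-RPE, against 1421 to 1502 CPM in MEF, and did not pass (log2 change -0.20, SE 0.12, edgeR adjusted p = 0.13). Ndufs1, the largest iron-sulfur subunit of complex I, had 86.7 and 81.9 CPM in P-RPE, against 81.5 to 86.7 CPM in MEF (log2 change 0.01, SE 0.11, edgeR adjusted p = 0.954). Uqcrc1 (log2 change 0.03) and Sdha (0.19) did not pass either. Cox5a had 30.2 and 28.4 CPM in P-RPE, against 50 to 55.8 CPM in MEF (log2 change -0.84, SE 0.15, edgeR adjusted p = 0.000129), the lowest values of the series.

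The change in P-RPE against MEF ran with the length of the gene's exons. This length joins the exons of all annotated transcripts of a gene, so it may exceed that of a single messenger. Over the 82 nuclear subunits with a length, Spearman's rho between log2 change and exonic length was -0.42, and it was -0.05 over all 20116 genes with a length. The median log2 change was 1.15 for the 21 subunits under 1 kb, 0.63 for the 42 between 1 and 3 kb and 0.34 for the 19 above 3 kb. Over all genes these medians were 0.09, 0.45 and 0.07. The coefficient was -0.35 for D32 against MEF and 0.31 for D32 against P-RPE, and it was -0.34 for D32 replicate 2 against the other D32 libraries. Genes share libraries and are not independent replicates, so these values describe the series.

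D32 cells were below primary RPE across the nuclear subunits. Of 83 tested, 0 were higher in edgeR (beside 27.1% of all genes) and 60 lower (72.3%, beside 26.8%), with a median log2 change of -0.59 beside 0.02 for all genes. At an unadjusted p under 0.05, 1 was higher in edgeR, and DESeq2 called 0. Without D32 replicate 2, 70 were lower and the median was -0.72. Lower were 27 of 36 in complex I, 4 of 4 in complex II, 8 of 8 in complex III, 7 of 17 in complex IV and 14 of 17 in the ATP synthase. With library totals alone, which move the median of all genes by 0.23, 45 were lower and 3 higher, and the median was -0.37. P-RPE held rod, red cell and macrophage RNA at the levels given above, D32 had 6.46 to 52.1 CPM of rod markers, with 6 of 8 above 1 CPM, and 102 to 204 CPM of red cell markers. Fibroblast markers summed to 9967 to 15841 CPM in D32, against 773 to 997 CPM in P-RPE. The part of these cell types in this difference was not tested.

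Several genes described above for P-RPE against MEF follow with their D32 values, and both comparisons share the P-RPE libraries. Ndufb11 had 78.2, 87.5 and 73.8 CPM in D32, against 241 and 226 CPM in P-RPE (log2 change -1.55, SE 0.10, edgeR adjusted p = 1.48e-08). Ndufv3 had 62.8, 77.0 and 63.1 CPM in D32, against 154 and 153 CPM in P-RPE (log2 change -1.18, SE 0.10). Atp5k had 21.7, 35.8 and 20.0 CPM in D32, against 70.8 and 64.2 CPM in P-RPE (log2 change -1.39, SE 0.20). None of the 3 overlapped. Ndufs7 had 37.6, 65.6 and 38.8 CPM in D32, against 103 and 115 CPM in P-RPE (log2 change -1.20, SE 0.18). Here the D32 level was also low beside the earlier stages, with 73.4 to 80.2 CPM in D7 and 74.8 to 87.7 CPM in D18. Of other core subunits, Sdha had 253, 262 and 250 CPM in D32, against 369 and 386 CPM in P-RPE (log2 change -0.57, SE 0.10, edgeR adjusted p = 0.000341). Uqcrfs1, the Rieske iron-sulfur protein of complex III, had 66.6, 72.7 and 56.2 CPM in D32, against 112 and 111 CPM in P-RPE (log2 change -0.77, SE 0.10). Atp5a1 had 617, 705 and 577 CPM in D32, against 984 and 1047 CPM in P-RPE (log2 change -0.68, SE 0.11). All 5 subunits of the F1 part of the ATP synthase were lower, with a median of -0.64.

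The 23 nuclear subunits that did not pass lay mostly in complex IV (10 of 17) and complex I (9 of 36). Cox6a1, the most abundant of them, had 184, 313 and 171 CPM in D32, against 242 and 260 CPM in P-RPE, and the groups overlapped (edgeR adjusted p = 0.461). Cox5a had 32.5, 47.3 and 32.4 CPM in D32, against 30.2 and 28.4 CPM in P-RPE, with a log2 change of 0.35 (SE 0.15, edgeR adjusted p = 0.055). Cox7a2l was likewise above P-RPE in every D32 library, with 109 to 126 CPM in D32 and 98.9 and 107 CPM in P-RPE, and did not pass (edgeR adjusted p = 0.111).

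**Figure D4:**
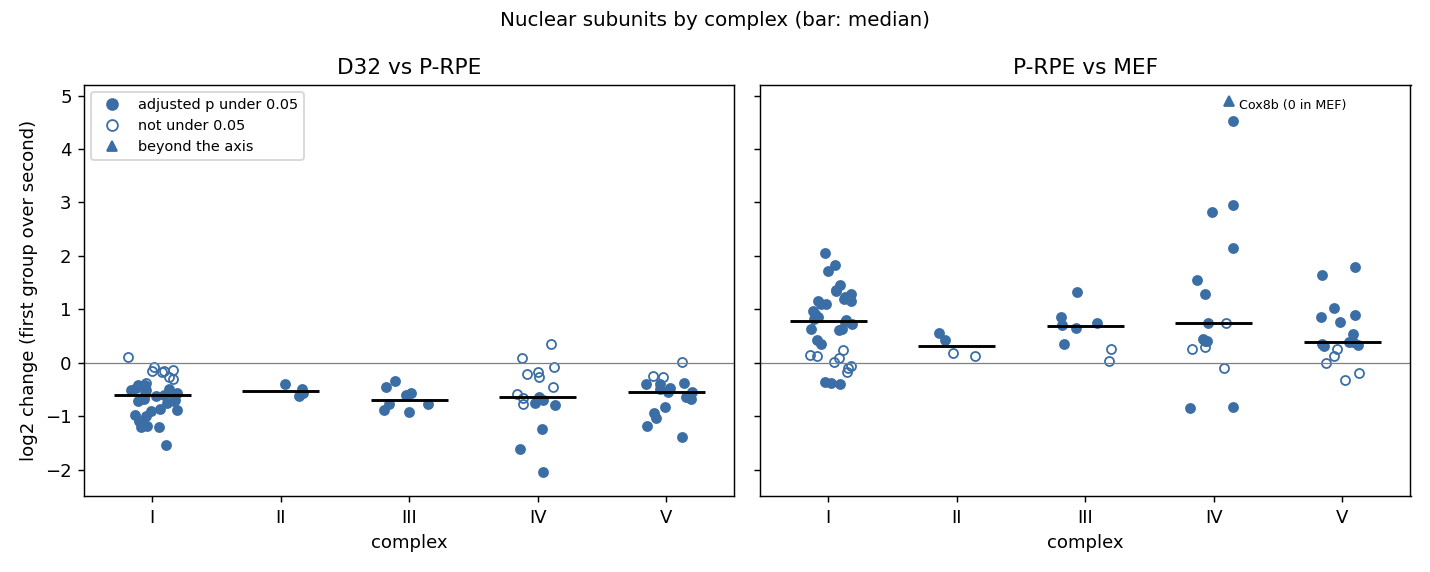
Log2 changes of 82 nuclear subunits by complex (without Cox7a2l), for D32 against P-RPE at the left and P-RPE against MEF at the right. Filled points passed at an adjusted p under 0.05 and bars are medians, which lie between -0.69 and -0.53 for D32 against P-RPE and between 0.31 and 0.78 for P-RPE against MEF. Cox8b is beyond the axis at the right, with 0 counts in MEF.

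Several complex IV subunits exist as a common and a tissue-restricted form, and the restricted forms carried the widest changes. Of 8 such genes, 6 had enough counts. In P-RPE against MEF 5 were higher and 1 did not pass, with a median log2 change of 2.89 over the 6, beside 39.3% of all genes higher. In D32 against MEF 5 were higher and 1 did not pass, with a median of 1.96, beside 35.6% of all genes higher. In D32 against P-RPE 2 were lower and 4 did not pass, with a median of -0.72, beside 26.8% of all genes lower. Their levels per length stayed below those of the common partners in every group mean.

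Cox8b, the heart and skeletal muscle form of subunit 8 (chr7:140898945-140900446, GRCm38, minus strand), had 0 counts in all 3 MEF libraries. It had 0.598, 0.818 and 0.612 CPM in D7, 0.337, 0.107 and 0.114 CPM in D18 and 11.5, 12.5 and 9.19 CPM in D32. P-RPE had 39.4 and 52.0 CPM. Against a floor of 3 counts over the MEF libraries (0.0288 CPM), it was at least 23.7-fold higher in D7, at least 384-fold higher in D32 and at least 1593-fold higher in P-RPE. D32 lay above D18 by a log2 change of 5.88 (SE 0.34, edgeR adjusted p = 1.33e-08) and below P-RPE by a log2 change of -2.05 (SE 0.25, edgeR adjusted p = 1.75e-05), with no overlap in either. The common form Cox8a (chr19:7215153-7217616, GRCm38, minus strand) had 459 and 470 CPM in P-RPE, against 154, 167 and 158 CPM in MEF (log2 change 1.54, SE 0.16, edgeR adjusted p = 5.14e-07). It had 167, 260 and 162 CPM in D32, of which replicate 2 stood apart, and 175 to 206 CPM in D7 and D18. Of the summed level per length of both genes, Cox8b took 10.6%, 7.61% and 8.90% in D32, against 12.9% and 16% in P-RPE. Per length, Cox8b had 30.7 CPM per kb and Cox8a 317 CPM per kb in D32, against 127 and 750 CPM per kb in P-RPE. The 10 skeletal muscle markers summed to 18.9 to 30.3 CPM in D32 and to 10.4 to 16.7 CPM in P-RPE, against 146 to 149 CPM in MEF, of which Acta1 alone had 118 to 125 CPM. Myod1 was at 0 in D32 and P-RPE. Of the muscle markers, Tnnt1 averaged 0.383 CPM in D7, 0.466 in D18 and 5.52 in D32, with 6.39 CPM in P-RPE and 2.77 CPM in MEF, and Myh7 averaged 0.624 CPM in D32 and 4.89 CPM in P-RPE, against 1.21 CPM in MEF. The 8 heart markers summed to 5.13 to 6.16 CPM in D32 and 7.13 to 7.53 CPM in P-RPE, and Ucp1, which defines brown fat, reached at most 0.214 CPM in any library. The 4 brown fat markers summed to 8.6 to 16.1 CPM in D32 and 34.8 to 46.6 CPM in P-RPE, nearly all of it from Ppargc1a. The part of these cell types in the Cox8b level was not tested.

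The promoters of this pair are shown because the forms differ so widely in their pattern across the groups. Each holds the 250 bases before the start and 50 after it (RefSeq, GRCm38.p6), Cox8b at chr7:140900397-140900696 (minus) and Cox8a at chr19:7217567-7217866 (minus). Capitals mark the motif TATAAA in Cox8b and the motif CTTCCGG, the reverse complement of CCGGAAG, in Cox8a.
Cox8b: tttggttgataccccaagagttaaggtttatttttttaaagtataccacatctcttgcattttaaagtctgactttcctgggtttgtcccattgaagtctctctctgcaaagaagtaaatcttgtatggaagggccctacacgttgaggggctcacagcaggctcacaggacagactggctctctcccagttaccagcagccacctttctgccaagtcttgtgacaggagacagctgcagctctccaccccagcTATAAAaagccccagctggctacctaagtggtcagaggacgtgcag
Cox8a: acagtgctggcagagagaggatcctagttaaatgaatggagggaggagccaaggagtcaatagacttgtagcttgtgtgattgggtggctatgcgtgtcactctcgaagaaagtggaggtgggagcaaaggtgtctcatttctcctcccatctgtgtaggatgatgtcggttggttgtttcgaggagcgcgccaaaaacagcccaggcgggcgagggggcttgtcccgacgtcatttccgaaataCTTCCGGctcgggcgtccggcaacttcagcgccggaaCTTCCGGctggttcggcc

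A set of 6 short motifs was searched on both strands in the promoters of 69 of the 89 nuclear subunits and of 27025 genes in all. The ETS motif CCGGAAG was in 23.2% of subunit promoters, against 9.12% of all promoters, and the NRF1 core GCATGCGC in 14.5% against 2.8%. The YY1 motif AAGATGGC was in 13% against 2.88%, the ERR motif AAGGTCA in 11.6% against 4.66%, and the CRE TGACGTCA in 5.8% against 1.88%. The TATA box TATAAA was in 11.6% of subunit promoters, against 14.2% of all promoters. A match describes letters, not binding.

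**Figure D5:**
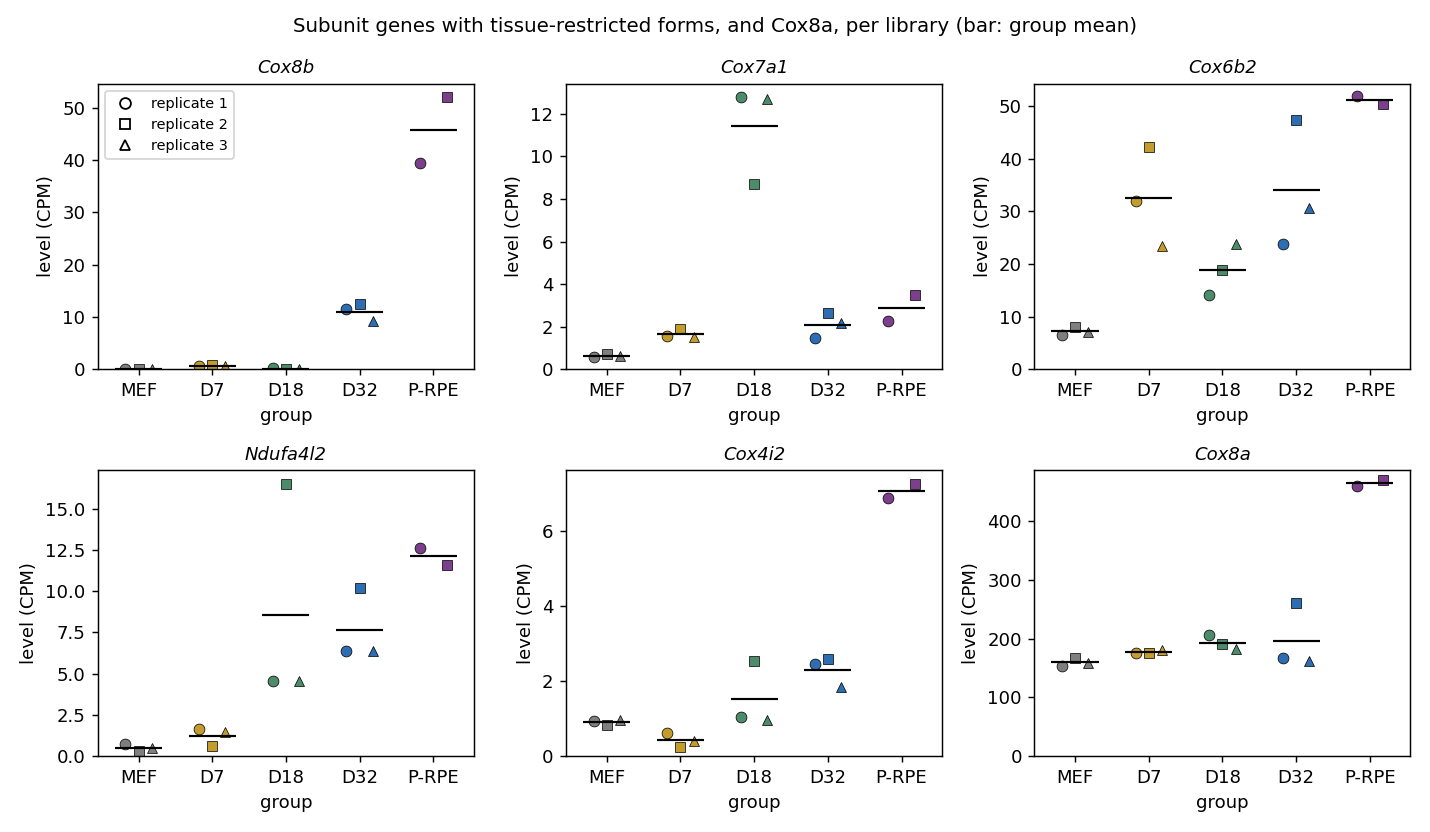
Levels in CPM of 5 complex IV genes with tissue-restricted or low-oxygen forms and of Cox8a, in each library, with bars at the group means. Cox8b is at 0 in MEF and at 39.4 and 52.0 CPM in P-RPE, Cox7a1 is highest in D18, and Cox8a stands at 459 and 470 CPM in P-RPE.

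Cox7a1, the heart and skeletal muscle form of subunit 7A (chr7:30184144-30186078, GRCm38, plus strand), was highest in D18. It had 12.8, 8.70 and 12.7 CPM in D18, against 1.55, 1.91 and 1.51 CPM in D7 (log2 change 2.78, SE 0.27, edgeR adjusted p = 5.98e-07). It had 1.5, 2.66 and 2.17 CPM in D32 (log2 change against D18 -2.43, SE 0.27), 2.27 and 3.48 CPM in P-RPE and 0.579 to 0.719 CPM in MEF. Only the D18 libraries of the series were above 4 CPM. Of the summed level per length of Cox7a1 and the common form Cox7a2, it took 27.4%, 20.5% and 31.1% in D18. Heart markers in D18 summed to 16.2 to 31.2 CPM, with 2 of 8 genes above 1 CPM: Myh6 had 15.6, 5.44 and 13.7 CPM and Tnni3 15.2, 10.6 and 13.7 CPM, while Nppa was at 0. Skeletal muscle markers summed to 4.27 to 8.78 CPM, with Tnnc2 and Myod1 at 0. The 4 brown fat markers summed to 16.8 to 31.5 CPM in D18, with 2 above 1 CPM. Among them Cidea had 7.5, 3.1 and 5.59 CPM in D18 and at most 0.574 CPM in any other library. The part of these cell types in the Cox7a1 level was not tested.

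Cox6b2, known as a testis form of subunit 6B, had 6.52, 8.13 and 7.03 CPM in MEF, 32, 42.2 and 23.5 CPM in D7 and 14.2, 18.8 and 23.8 CPM in D18. It had 23.9, 47.4 and 30.7 CPM in D32, against 52.0 and 50.5 CPM in P-RPE. It was higher than in MEF in D7 (log2 change 2.17, SE 0.27), in D32 (2.23, SE 0.27) and in P-RPE (2.82, SE 0.29). Every later library lay above MEF. D32 did not pass against P-RPE (edgeR adjusted p = 0.0862), and its call against D18 was lost without D32 replicate 2 (log2 change 0.53) or D18 replicate 1 (0.67). Its common partner Cox6b1 stayed at 113 to 169 CPM in every library.

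Ndufa4l2 and Cox4i2 are paralogs known from cells in low oxygen. Ndufa4l2 had 0.332 to 0.731 CPM in MEF and 0.636 to 1.63 CPM in D7. D18 had 4.58, 16.5 and 4.56 CPM, D32 6.36, 10.2 and 6.37 CPM, and P-RPE 12.6 and 11.6 CPM. D18 replicate 2 stood apart, and every D18, D32 and P-RPE library lay above every MEF and D7 library. D18 was above D7 by a log2 change of 2.79 (SE 0.50, edgeR adjusted p = 0.000283) and P-RPE above MEF by 4.53 (SE 0.58, edgeR adjusted p = 7.6e-06), while D32 against P-RPE did not pass (log2 change -0.66). Cox4i2 had 2.45, 2.59 and 1.85 CPM in D32, against 6.88 and 7.26 CPM in P-RPE (log2 change -1.62, SE 0.39, edgeR adjusted p = 0.00248). It had 0.830 to 0.964 CPM in MEF, and it took 3.46% and 3.5% of the summed level per length of both Cox4 genes in P-RPE. Epas1, a transcription factor of the low-oxygen response, had 393, 434 and 292 CPM in D32, against 1549 and 1523 CPM in P-RPE and 16.8 to 18 CPM in MEF. The common partner Ndufa4 had 209 and 181 CPM in P-RPE, against 74.3 to 84.4 CPM in MEF (log2 change 1.29, SE 0.10).

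The c ring of the ATP synthase is built from 3 genes that code for the same mature protein. Atp5g1 took 16%, 16% and 13.7% of their summed level per length in D32, against 22.0% and 21.5% in P-RPE, and 13.3% to 13.7% in MEF. Atp5g2 took 26.5% and 27.3% in P-RPE, against 38.4% to 40.0% in MEF. The size of these shares depends on the merged exon lengths used, 4.912 kb for Atp5g1, 1.675 kb for Atp5g2 and 2.181 kb for Atp5g3. In CPM without this division, P-RPE averaged 237 for Atp5g1, 100 for Atp5g2 and 249 for Atp5g3. Atp5g1 itself had 238 and 237 CPM in P-RPE, against 123, 134 and 126 CPM in MEF (log2 change 0.89, SE 0.14, edgeR adjusted p = 4e-05). Atp5g2 did not pass (log2 change -0.33), and 65.3% of its 100-base windows occur in no other annotated transcript, so its counts may include those of copies. Both P-RPE libraries lay outside the MEF range for both shares.

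Within each complex, the nuclear gene with the highest mean level per length over the 5 groups was Ndufa2 in complex I (123 CPM per kb), Sdha in complex II (81.0), Uqcr11 in complex III (156), Cox6a1 in complex IV (459) and Atp5a1 in the ATP synthase (262 CPM per kb). Atp5b followed Atp5a1 at 261 CPM per kb. The order of these 2 per length differed between groups: Atp5b was ahead in MEF, with 346 against 255 CPM per kb, and behind in D18, with 192 against 248 CPM per kb. That order depends on the merged exon lengths used, 4.237 kb for Atp5b and 3.135 kb for Atp5a1. In CPM without this division, Atp5b had the higher mean in every group, with 811 against 777 CPM in D18.

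Genes that serve the chain did not follow its subunits as a block. Of 77 tested genes of the mitochondrial ribosome, which translates the 13 mitochondrial messengers, 15 were higher and 41 lower in P-RPE than in MEF, with a median log2 change of -0.50. Of all genes, 39.3% were higher and 31.4% lower in that comparison, with a median of 0.18. In D32 against MEF, 3 of the 77 were higher and 49 lower, with a median of -0.47, beside 35.6% higher and 24.6% lower and a median of 0.26 for all genes. Mrpl58, a release factor of this ribosome, went the other way in P-RPE, with 141 CPM in P-RPE and 23.3 CPM in MEF (log2 change 2.60, SE 0.14). D32 against P-RPE gave 15 higher and 22 lower, with a median of -0.08, beside 27.1% higher and 26.8% lower of all genes. Of 13 genes that process mitochondrial transcripts, 9 were lower and none higher by edgeR in P-RPE than in MEF, with a median of -0.76, and in D32 than in MEF, with a median of -0.73. Tbrg4, which acts on mitochondrial messengers, averaged 22.6 CPM in P-RPE and 87.7 CPM in MEF (log2 change -1.96, SE 0.14). Lrpprc, which stabilises mitochondrial messengers, had 47.8, 38.0 and 49.9 CPM in D32, against 96.2, 100 and 97.9 CPM in MEF (log2 change -1.12, SE 0.12). Both were lower in every D32 and P-RPE library than in every MEF library.

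Assembly factors moved both ways. In D32 against P-RPE, 1 of 15 tested for complex I was higher and 8 lower, 0 of 4 and 2 for complex II, 2 of 6 and 2 for complex III, 0 of 23 and 10 for complex IV, and 1 of 5 and 3 for the ATP synthase, beside 27.1% higher and 26.8% lower of all genes. In P-RPE against MEF, 6 of 15 were higher and 4 lower for complex I and 9 of 23 higher and 6 lower for complex IV, near the shares of all genes (39.3% higher and 31.4% lower). Higd2a, a complex IV assembly factor, averaged 83.8 CPM in D32, against 213 CPM in P-RPE (log2 change -1.35, SE 0.13). Of 17 genes that copy and transcribe mitochondrial DNA, 2 were higher and 4 lower in D32 than in P-RPE, and the packaging factor Tfam did not pass in any of the 6 comparisons (log2 changes of -0.18 to 0.14). Of 17 citrate cycle and pyruvate dehydrogenase genes, 7 were higher and 6 lower in P-RPE than in MEF, again near the shares of all genes. Cs, the citrate synthase often used as a measure of mitochondrial mass, had 217, 216 and 191 CPM in D32 and 199 and 185 CPM in P-RPE, against 385 to 418 CPM in MEF. It was therefore lower in P-RPE while most nuclear subunits were higher.

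Electron carriers outside the subunit symbols had 2 of 5 genes higher and 1 lower in P-RPE than in MEF, beside 39.3% higher and 31.4% lower of all genes. Cycs, which codes for cytochrome c, had 51.0 and 50.6 CPM in P-RPE, against 106, 111 and 105 CPM in MEF (log2 change -1.08, SE 0.14, edgeR adjusted p = 6.39e-06). Of 13 coenzyme Q synthesis genes, 6 were higher and 4 lower in that comparison, near the shares of all genes. Coq8a, a kinase-like protein of that pathway, had 11.4, 10.5 and 10.8 CPM in D32 and 45.3 and 44.4 CPM in P-RPE, against 0.851 to 1.25 CPM in MEF. Of 7 carriers for nucleotides, phosphate and protons, 4 were higher and 1 lower in P-RPE than in MEF. Ucp2, a carrier of the inner membrane, had 150, 142 and 123 CPM in D32, against 594 and 728 CPM in P-RPE (log2 change -2.26, SE 0.34, edgeR adjusted p = 0.000105) and 16.3 to 18 CPM in MEF. Both genes kept the order P-RPE over D32 over MEF in every library.

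Of 17 regulators of mitochondrial genes, 9 were higher and 6 lower in P-RPE than in MEF, beside 39.3% and 31.4% of all genes. Ppargc1a, a coactivator known to raise mitochondrial gene expression, had 27.4, 31.7 and 25.5 CPM in D7, against 2.38, 0.996 and 1.76 CPM in MEF (log2 change 4.05, SE 0.34, edgeR adjusted p = 1.71e-07). It had 15.4, 8.02 and 11 CPM in D32, against 46.0 and 34.0 CPM in P-RPE (log2 change -1.80, SE 0.31, edgeR adjusted p = 0.000236). Its relative Pprc1 ran the other way, with 21.8 and 31.0 CPM in P-RPE, against 163, 166 and 165 CPM in MEF (log2 change -2.64, SE 0.26). Esrrb averaged 0.448 CPM in D32, against 12.3 CPM in P-RPE (log2 change -4.78, SE 0.51). None of these pairs of groups overlapped where per-library values are given.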

How the data were processed

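Whole-number gene counts were used as deposited by the authors for 14 mouse libraries. Per the submitters' processing notes, STAR 2.7.11a, featureCounts, Subread, edgeR 4.0.16 and limma 3.58.1 were used, with the builds mm10, GRCm38 and GRCh38. Which tool did what, how strand and multi-mapped reads were handled and the annotation release are not given in the sources used here. Of counts between 1 and 10, 72.0% were even, against 50.7% of counts above 1000; the cause was not tested. A second, human table was not used here.

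Counts were fitted in R 4.3.3 with edgeR 4.0.16 (TMM scaling, filterByExpr by group, robust glmQLFit and glmQLFTest) in 1 model of 5 group means, with Benjamini-Hochberg adjustment over 20562 genes and a threshold of 0.05. Fold changes are log2 changes of group means. Levels are TMM-scaled CPM, and levels between genes are CPM per kb of merged exons. Merged exons join all annotated transcripts of a gene, so their length may exceed that of a single messenger. The scripts were tested on simulated data. DESeq2 1.42.0, 3 other scalings, no filter, a model of the 2 groups alone, a replicate block and leaving out each library were the alternatives. Total counts of 32352405 to 41390196 per library set the precision. Floors for genes at 0 were 3 counts over a group and cover counting error only.

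Coordinates and transcripts are from GENCODE vM21 (GRCm38), where 101 of the 102 symbols matched 1 gene, 2 of them by an older symbol. Promoters are from RefSeq (GRCm38.p6). The members and all lists (markers, assembly factors, coenzyme Q, citrate cycle, carriers, regulators, mitochondrial DNA, transcripts and ribosome) were chosen with earlier results of these data known, so they carry no test of their own. Named were all mitochondrial genes, the 3 called nuclear members with the largest change each way per comparison at a mean of at least 10 CPM, fixed core subunits and isoform sets, and the most abundant members. Any other subunit named was chosen after its values were seen. Deviations of libraries with the same replicate number had correlations of -0.1 to 0.1. These values cannot tell whether such libraries shared a culture or batch.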

Additional observations from a re-analysis of the deposited data

How the results depend on the processing

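Most results kept their direction and side of the threshold: over named genes and settings, 3850 values kept both, 138 gained a call, 178 lost one and 5 changed sign. The cause was not tested where a value moved. With library totals alone, D7 against MEF gave 53 nuclear subunits higher and 0 lower (median 0.35), a mitochondrial median of 1.36, and log2 changes of 0.30 for Ndufs1, 0.31 for Cox6b1 and 0.23 for Cox7a2. D18 against D7 gave 14 higher and 35 lower (median -0.17), D32 against MEF 38 higher and 10 lower (median 0.20), and D32 against P-RPE 3 higher (median -0.37). The higher share of all called genes then moved to 69.7% (TMM 51.8%) in D7 against MEF, 40.7% (51.6%) in D18 against D7 and 62.1% (50.2%) in D32 against P-RPE.

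With the model of the 2 groups alone, D7 against MEF gave 31 nuclear subunits higher and 13 lower, D32 against MEF a median of -0.04 and 1 mitochondrial gene lower, and P-RPE against MEF 8 nuclear lower. DESeq2 and RLE size factors both gave nuclear medians of -0.01 in D7 against MEF, 0.10 in D18 against D7 and -0.06 in D32 against MEF, with 1 mitochondrial gene lower in that comparison, and DESeq2 gave 11 nuclear lower in D7 against MEF. Library sizes without mitochondrial genes gave -0.01 for D32 against MEF. Without a filter, D32 against MEF had a median of -0.07 and 1 mitochondrial gene lower, D32 against P-RPE 1 nuclear subunit higher, and P-RPE against MEF a median of 0.49.

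Leaving out 1 library gave, for D7 against MEF, 2 to 6 nuclear subunits lower, nuclear medians of -0.01 to 0.07 and mitochondrial medians of 0.93 to 1.06. For D32 against D18 it gave 19 to 43 nuclear subunits lower, 4 to 12 mitochondrial genes higher, -0.23 to 0.14 for Cox8a and -0.32 to 0.15 for Ndufa1. For D32 against MEF it gave 13 to 31 nuclear lower, medians of -0.11 to 0.07 and 0 to 1 mitochondrial lower. For D32 against P-RPE it gave 0 to 1 nuclear higher, 3 to 8 mitochondrial higher, 0 to 1 lower and mitochondrial medians of 0.02 to 1.09. For P-RPE against MEF it gave 3 to 4 nuclear lower and medians of 0.57 to 0.66.

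With the replicate number as a block, D7 against MEF had 16 nuclear subunits higher and 6 lower (median 0.03), and D32 against P-RPE had 60 lower (median -0.58). Of the named genes, 323 values kept direction and side of the threshold, 4 gained and 3 lost a call. Whether equal numbers stand for a shared culture or batch was not tested. With 2 P-RPE libraries and a wide spread in D18, D32 and P-RPE, small differences may not have been detectable, and the 6 mitochondrial genes between mt-Co1 and mt-Nd4 rest on few counts.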
